A study of Mus musculus with 8 samples.

Results

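Ligand genes of the transforming growth factor beta (TGF-beta) family, 9 in all, were followed in mouse cerebellar cultures with and without thyroid hormone: Gdf10, Bmp2, Bmp4, Bmp6, Bmp7, Tgfb1, Tgfb2, Tgfb3 and Inhba. All probe-sets that carry 1 of these 9 symbols and no other were taken, which gave 16 of the 45037 probe-sets on the array, for 9 of the 18193 genes with a probe-set of their own. Gdf10 was selected on its T3 signals, which had been seen to stand further above the untreated culture at each later time point, so its T3 values are a description and carry no test. The other 8 genes were chosen as relatives of Gdf10. A probe-set was kept for testing when its mean log2 signal over all arrays was in the top 40% of probe-sets (a mean signal of about 31.0). That filter kept 18015 probe-sets in all, and 10 of the 16 studied here, for 7 of the 9 genes. All probe-sets of Tgfb1 and Inhba lay below it.

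The cultures were prepared from the cerebella of wild-type pups, aged P4 to P7 by the sample labels, and kept for 48 h in serum-free medium before treatment. They then received T3, the active thyroid hormone, at 0.1 µM for 6, 16, 24 or 48 h, or were left without it for the same times. Each of these 8 conditions was 1 culture read on 1 whole-genome Affymetrix mouse array, and the T3 and untreated cultures of a time point came from 1 batch of cells pooled from several animals. No condition had a replicate. The p values below therefore measure the spread among these arrays only. The methods do not say whether the time points shared a batch, so the hours of culture and the batch of cells cannot be told apart.

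Ligands of the TGF-beta family are secreted dimers that bring type I and type II receptor kinases together, and the receptors then phosphorylate SMAD transcription factors. The BMPs signal mainly through Smad1, Smad5 and Smad8, while the TGF-betas and the activins signal mainly through Smad2 and Smad3. Gdf10, also called BMP-3b, is a close relative of Bmp3, and in the cerebellum its transcript is known from Bergmann glia. BMPs made by the meninges, roof plate and choroid plexus pattern the early cerebellum, and Bmp2 and Bmp4 can end the division of granule cell precursors.

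The promoters of 3 ligands are shown because their signals make up the main results: Gdf10 for its T3 difference, Bmp4 and Bmp6 for their rise with the hours. They are from RefSeq on build GRCm38.p6, run from 250 bases before the start of transcription to 30 bases into the transcript, and are written 5′ to 3′ on the strand of the gene. Gdf10 lies at chr14:33923337-33923616 (plus strand), Bmp4 at chr14:46390640-46390919 (minus strand) and Bmp6 at chr13:38345466-38345745 (plus strand). Capitals mark GGCGCC, an element bound by Smad1 and Smad5.
Gdf10: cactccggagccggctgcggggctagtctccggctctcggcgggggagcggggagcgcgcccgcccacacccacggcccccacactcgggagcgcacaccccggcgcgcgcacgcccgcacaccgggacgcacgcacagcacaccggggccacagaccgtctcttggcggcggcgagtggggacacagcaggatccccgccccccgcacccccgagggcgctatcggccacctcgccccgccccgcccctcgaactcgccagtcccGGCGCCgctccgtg
Bmp4: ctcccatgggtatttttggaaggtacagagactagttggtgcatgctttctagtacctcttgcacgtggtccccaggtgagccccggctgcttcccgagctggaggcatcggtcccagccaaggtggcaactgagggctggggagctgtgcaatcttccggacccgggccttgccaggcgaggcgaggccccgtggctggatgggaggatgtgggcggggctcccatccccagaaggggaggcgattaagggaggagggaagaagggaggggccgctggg
Bmp6: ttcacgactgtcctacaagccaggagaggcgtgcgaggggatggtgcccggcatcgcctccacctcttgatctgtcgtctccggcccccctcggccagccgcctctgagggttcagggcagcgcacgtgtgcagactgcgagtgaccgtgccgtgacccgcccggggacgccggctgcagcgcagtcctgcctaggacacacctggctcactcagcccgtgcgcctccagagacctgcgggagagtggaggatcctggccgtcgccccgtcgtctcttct
Promoter entries were matched for 6 of the 9 ligands (Gdf10, Bmp4, Bmp6, Tgfb1, Tgfb2 and Inhba). Windows of 300 bases were searched on both strands for AGGTCA, the half-site of the thyroid hormone receptor, for a pair of these half-sites in tandem spaced by 4 bases (each pair also counts under the half-site), for GGCGCC and for CAGACA, a sequence bound by Smad3 and Smad4. Among all 32851 windows, 16.3% held the half-site, 0.015% the pair, 11.9% GGCGCC and 21.0% CAGACA. None of the 6 ligand windows held the half-site. Gdf10 held GGCGCC, beginning at base 17 of the transcript, and Tgfb2 held CAGACA, at position -204 from its start. The Gdf10 window was rich in CG pairs, with 42 of them and a GC content of 77.3%, against a median of 7 pairs and 52.7% over all windows. It had as many CG pairs as, or more than, 97.4% of windows. Bmp6 had 27 CG pairs, Tgfb1 30, Bmp4 12, Tgfb2 10 and Inhba 7.

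Gdf10 was read by 1 probe-set. Its signal was 119.1, 135.1, 196.3 and 545.2 in the T3 cultures at 6, 16, 24 and 48 h, against 98.4, 76.9, 98.9 and 197.7 in the untreated cultures. The T3 culture was above the untreated culture of its own time point in 4 of 4 pairs. The T3 signal grew at each step, whereas the untreated signal was lower at 16 h than at 6 h and highest at 48 h. The ranges of the groups overlap over the whole course, since the untreated culture at 48 h was higher than the T3 cultures at 6, 16 and 24 h. Between 6 and 48 h the signal increased 4.58-fold in the T3 cultures and 2.01-fold in the untreated cultures. The arrays are bulk samples, so here and below fewer cells of a type and less RNA per cell cannot be told apart.

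The ratio of T3 to untreated Gdf10 signal was 1.21 at 6 h, 1.76 at 16 h, 1.99 at 24 h and 2.76 at 48 h. On the log2 scale these differences were 0.28, 0.81, 0.99 and 1.46. These are the values that chose the gene, so nothing is read from their size. Over all kept probe-sets the SD of the same difference was 0.29, 0.29, 0.60 and 0.32 at these times, widest for the 24 h arrays.

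A difference that grew at each of the 3 steps was found in 482 kept probe-sets (2.68%). In 45 of them (0.25%) it was also above 0 at 6 h, and 3 passed 2-fold at 48 h as well. These 3, counted on the values that chose Gdf10, were Gdf10 itself, Fzd4 and Zkscan14. Fzd4, a frizzled receptor for Wnt and norrin, had log2 differences of 0.38, 0.57, 0.64 and 1.15. Zkscan14, a zinc finger gene, had 0.38, 0.45, 1.00 and 1.06.

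**Figure D1:**
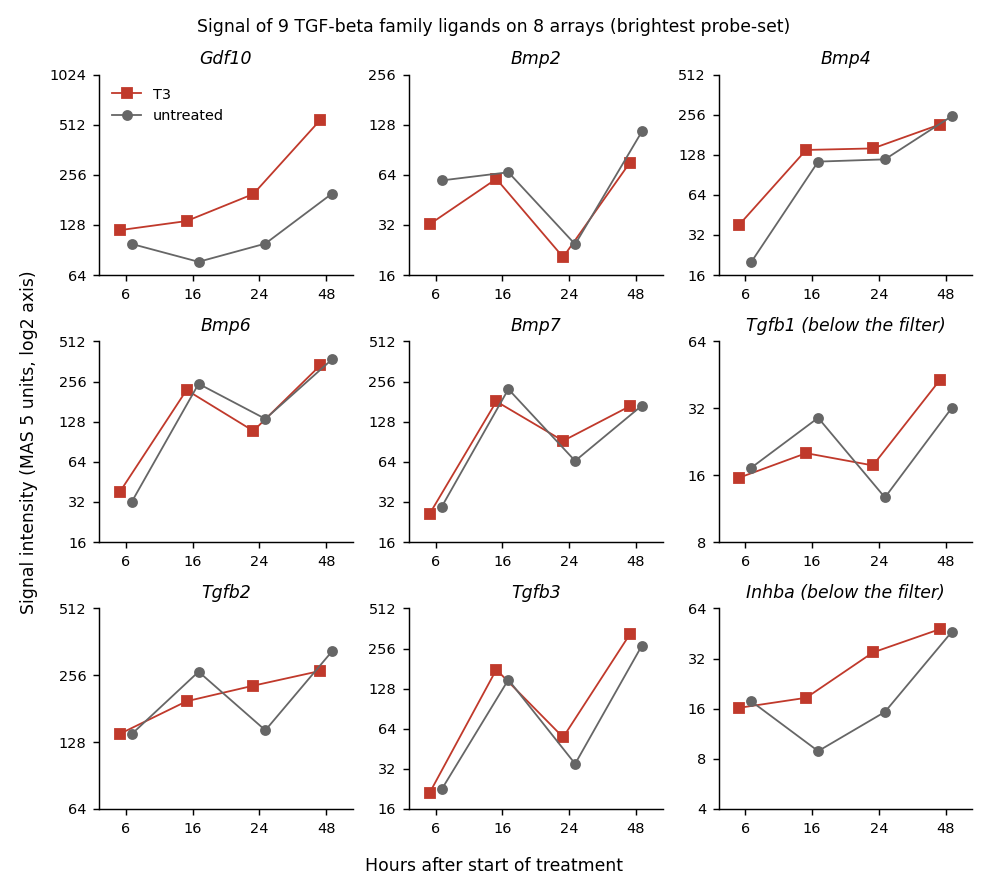
Signal intensity (log2 axis, MAS 5 units) of the brightest probe-set of each of the 9 ligands at 6, 16, 24 and 48 h, with red squares for T3 cultures and grey circles for untreated cultures, 1 array per point and no error bars because no condition was replicated. Gdf10 is higher with T3 at all 4 times, reaching 545.2 against 197.7 at 48 h, while the T3 and untreated points of Bmp6, Bmp7 and Tgfb3 run close together.

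The genes whose log2 signal followed Gdf10 most closely over the 8 arrays were Psma6 (Pearson r = 0.96), Lzic (0.94), Dnm2 (0.94), Timp3 (0.94) and Nsmaf (0.93). Psma6 is a proteasome subunit, Dnm2 a dynamin of endocytosis and Timp3 an inhibitor of matrix metalloproteinases. Timp3 had 23.8, 31.6, 31.3 and 71.6 in T3 cultures, against 22.6, 26.6, 22.5 and 41.5 in untreated cultures. Timp3, Lzic and Dnm2 were each higher with T3 at every time and highest at 48 h. These genes were picked for likeness over arrays that include the values that chose Gdf10, so a shared course is not a result. The lowest correlations were those of Zfp397 (-0.97), Fam120c (-0.94) and Phrf1 (-0.93). Psma6 and Dnm2 varied little in size: Psma6 stayed between 1476.1 and 1689.8 in T3 cultures and between 1406.7 and 1595.9 in untreated cultures. Dnm2 stayed between 74.8 and 92.7 with T3 and between 70.2 and 84.8 without. Lzic varied more, from 91.7 to 136.4 with T3 and from 70.0 to 111.5 without. The T3 and untreated arrays of a time point share a cell batch, and no p is given for these correlations.

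Among the BMPs, Bmp2 is a ligand of the BMP receptors known for bone formation and for driving granule cell precursors out of the cycle. Its signal was 32.3, 60.5, 20.5 and 75.8 in T3 cultures at 6, 16, 24 and 48 h, against 59.2, 66.3, 24.5 and 116.5 in untreated cultures. Bmp2 was lower with T3 in 4 of 4 pairs, with ratios of 0.546, 0.913, 0.837 and 0.651, and the ranges of the groups overlapped. In the limma fit over the 4 pairs the T3 difference was -0.47 on the log2 scale (SE 0.18, unadjusted p = 0.031, adjusted p = 0.815) and did not pass. No probe-set passed that T3 test (0 of 18015, 0%). In that limma fit 985 probe-sets had an unadjusted p under 0.05.

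Bmp4, a ligand made by roof plate and mesenchymal cells, had a signal of 38.3, 139.1, 142.8 and 215.7 in T3 cultures, against 20.1, 113.7, 118.2 and 249.1 in untreated cultures. It was higher with T3 at 6, 16 and 24 h and lower at 48 h, with ratios of 1.91, 1.22, 1.21 and 0.866. The ratio at 6 h rests on an untreated signal of 20.1, below the filter level of about 31.0. With 32 added to every signal the log2 difference of Bmp4 at 6 h was 0.43 in place of 0.93. Its T3 difference shrank by 0.37 on the log2 scale for each doubling of the hours (SE 0.13, limma, unadjusted p = 0.0259). After adjustment this did not pass (limma, adjusted p = 1.0), and no probe-set passed the test for a T3 difference that changes with the hours (0 of 18015, 0%, with 245 at an unadjusted p under 0.05 in limma). The mean T3 difference of Bmp4 over the 4 pairs was 0.32 (SE 0.19, limma, adjusted p = 0.815). With 32 added to every signal, the T3 difference of Bmp4 changed by -0.19 per doubling in place of -0.37.

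Bmp6, a BMP also known for its part in iron control through hepcidin, had 38.0, 221.2, 109.1 and 338.0 in T3 cultures and 32.1, 246.4, 134.4 and 376.5 in untreated cultures. The T3 and untreated values of a time point lay close together, with ratios between 0.812 and 1.18, and the T3 difference was -0.09 (SE 0.13, limma, adjusted p = 0.89). Bmp7, which acts in kidney, eye and choroid plexus development, had 26.0, 181.6, 91.9 and 167.4 with T3 and 29.3, 224.6, 65.0 and 169.2 without on its brightest probe-set. The ratio was above 1 at 24 h (1.41) and below 1 at the other times. A second kept probe-set of Bmp7 had 16.8, 168.6, 92.0 and 178.1 in T3 cultures and 16.4, 193.4, 59.2 and 161.6 in untreated cultures. Its ratios were 1.02, 0.872, 1.55 and 1.10, so the Bmp7 probe-sets shared the direction of the T3 difference at 16 and 24 h and not at 6 and 48 h. The last Bmp7 probe-set stayed below the filter, at 4.7 to 29.1 with T3 and 0.4 to 20.2 without.

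Among the TGF-betas, Tgfb2, the isoform with many roles in neural crest and heart development, had 139.4, 195.5, 229.8 and 267.7 in T3 cultures, against 139.2, 265.6, 144.7 and 328.5 in untreated cultures. It was lower with T3 at 16 and 48 h, higher at 24 h (1.59-fold) and about level at 6 h, and its T3 difference over the pairs was -0.02 (SE 0.19, limma, adjusted p = 0.985). Both other kept Tgfb2 probe-sets were also higher with T3 at 24 h only: 1 had 94.2, 119.5, 154.5 and 165.7 with T3 and 106.4, 190.1, 113.8 and 229.3 without, and the other 59.7, 84.1, 59.2 and 113.1 with T3 and 63.0, 93.9, 51.4 and 128.6 without. The remaining probe-set of Tgfb2 was below the filter, at 4.3 to 13.2 with T3 and 9.6 to 14.3 without.

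Tgfb3, known for its role in closing the palate, had 21.1, 177.9, 55.2 and 328.0 in T3 cultures and 22.4, 149.3, 34.9 and 269.3 in untreated cultures. It was slightly higher with T3 from 16 h on, by 1.58-fold at most, and the T3 difference was 0.28 (SE 0.16, limma, adjusted p = 0.815). Tgfb1, the isoform of immune cells and wound repair, stayed low on its brighter probe-set, at 15.6, 20.1, 17.7 and 42.8 with T3 and 17.3, 29.0, 12.7 and 32.1 without. The other Tgfb1 probe-set gave 5.9 to 13.0 with T3 and 5.9 to 18.2 without, with no common direction.

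Inhba encodes the subunit that forms activin A. Its brighter probe-set had 16.2, 18.6, 34.8 and 48.0 in T3 cultures and 17.7, 8.9, 15.3 and 46.2 in untreated cultures. The ratios of 2.09 at 16 h and 2.28 at 24 h rest on signals near or below the filter, and at 6 and 48 h the ratios were 0.915 and 1.04. The other Inhba probe-set did not exceed 3.4 on any array. Neither Tgfb1 nor Inhba entered a test.

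At a single time point 1 array was set against 1 array, so differences past 2-fold were counted without a test. Over all kept probe-sets, 0.527% were past 2-fold higher and 0.328% past 2-fold lower with T3 at 6 h, 0.433% higher and 0.305% lower at 16 h, 3.67% higher and 5.16% lower at 24 h, and 0.833% higher and 0.344% lower at 48 h. Of the 7 kept ligands, only Gdf10 passed 2-fold higher, at 48 h, where this is the value that chose it. None passed 2-fold lower at any time. The plot of T3 differences shows the other 6 ligands on both sides of 0, without a common direction.

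**Figure D2:**
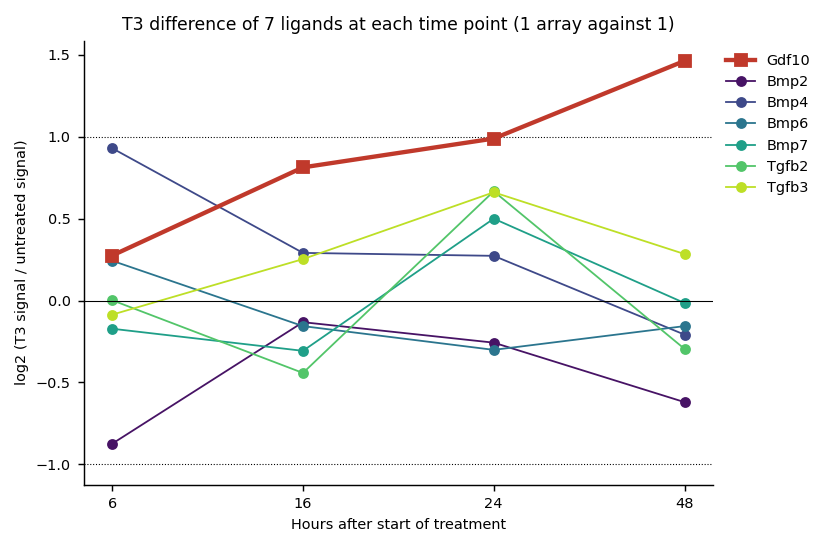
Log2 ratio of T3 to untreated signal (vertical axis) at 6, 16, 24 and 48 h for the 7 ligands above the filter, each point 1 array against 1 array, with dotted lines at 2-fold. Gdf10 (red squares) climbs through 0.28, 0.81, 0.99 and 1.46, Bmp4 declines, and Bmp7, Tgfb2 and Tgfb3 peak at 24 h.

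The rule did not use the course over the hours, so the other ligands could be tested for it, taking T3 and untreated arrays together with treatment as a covariate and the time point as a random block. The hours are counted from the start of treatment, after 48 h in culture, so doubling them does not double the age of the culture. Bmp4 and Bmp6 rose. Bmp4 gained 1.01 on the log2 scale for each doubling of the hours (SE 0.18, limma, adjusted p = 0.044), and between 6 and 48 h it increased 5.63-fold in T3 cultures and 12.4-fold in untreated cultures. The 12.4-fold starts from a signal of 20.1, below the filter level. Bmp6 gained 1.03 per doubling (SE 0.21, limma, adjusted p = 0.0478), with 8.90-fold in T3 cultures and 11.7-fold in untreated cultures. Most of this gain lay between 6 and 16 h, and for Bmp6 the 24 h signals were lower than those at 16 h in both treatments. Over all kept probe-sets 1.75% rose with the hours and 0.422% fell. In limma neither gene passed without the 6 h pair (slopes of 0.59 for Bmp4 and 0.51 for Bmp6, adjusted p = 0.999 for both) or without the 48 h pair (1.19 with adjusted p = 0.41, and 1.09 with adjusted p = 0.462). Both calls were also lost with quantile normalization, without the filter, with hours in place of their log2 and on the means of the time points.

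The other ligands tested had positive slopes that did not pass in limma. Tgfb3 had the steepest, 1.09 (SE 0.31, adjusted p = 0.0876), with 15.5-fold between 6 and 48 h in T3 cultures and 12.02-fold in untreated cultures. Its 6 h signals, 21.1 with T3 and 22.4 without, lay below the filter level. The Bmp7 probe-sets gave 0.78 (SE 0.27, limma adjusted p = 0.124) and 1.04 (SE 0.29, limma adjusted p = 0.0803). The 3 kept Tgfb2 probe-sets gave 0.33, 0.30 and 0.26, with limma adjusted p values of 0.251, 0.28 and 0.329. Bmp2 gave 0.22 (SE 0.26, limma adjusted p = 0.624), with its lowest signals at 24 h in both treatments. The median slope over all kept probe-sets was -0.03.

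Bmp4, Bmp6, Bmp7, Tgfb2 and Tgfb3 moved together over the 8 arrays, with Pearson r between 0.80 and 0.95 for each pair. For Gdf10, r to these ligands was between 0.325 and 0.57, and r to Bmp2 was 0.25. The Gdf10 values include the T3 signals that chose the gene, so a weaker tie is not a result. These correlations are descriptions over 8 arrays, and the T3 and untreated arrays of a time point share a cell batch. On their brightest probe-sets Bmp4, Bmp6, Bmp7, Tgfb2 and Tgfb3 had their lowest signals at 6 h in both treatments. Another kept Tgfb2 probe-set was lowest at 24 h, at 59.2 with T3 and 51.4 without.

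The labels name the cultures as cerebellar neurons, and all 9 markers of granule cells were kept, with a summed signal of 2915.6 to 9940.7 in T3 cultures and 2246.8 to 10764.4 in untreated cultures. Markers of meningeal fibroblasts were present too. Of their 11 markers 10 were kept, 6 rose with the hours and none fell in limma, against 1.75% and 0.422% of all kept probe-sets, and the median slope was 1.21. These calls too were lost on the means of the time points and without the 6 h or the 48 h pair, where no probe-set passed. None of the 11 was at 0 on any array. Their summed signal was 1592.5 to 15470.9 in T3 cultures and 2093.4 to 16639.6 in untreated cultures, lowest at 6 h and highest at 48 h in both. The mean log2 signal of these markers correlated over the 8 arrays with Bmp4 at 0.94, Bmp6 at 0.97, Bmp7 at 0.94, Tgfb3 at 0.90 and Tgfb2 at 0.87. The correlation was 0.41 with Bmp2 and 0.50 with Gdf10, whose value includes the signals that chose the gene. Other lists moved with the same ligands. Choroid plexus markers correlated with Bmp4 at 0.77, Bmp6 at 0.88, Bmp7 at 0.93 and Tgfb3 at 0.95, and endothelial and mural markers with these at 0.64, 0.79, 0.77 and 0.94. Granule cell markers ran the other way, at -0.78 with Bmp4, -0.85 with Bmp6, -0.82 with Bmp7, -0.95 with Tgfb3 and -0.96 with Tgfb2. The tie of the ligands to meningeal markers was thus shared with other lists, and the part of any cell type in the rise of Bmp4 and Bmp6 was not tested.

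For Gdf10, the markers of Bergmann glia and astrocytes were set beside the T3 difference. Of these 14 markers 13 had a probe-set and 12 were kept, and none of the 13 was at 0 on any array. The ratio of their summed signal, T3 over untreated, was 1.01, 1.08, 0.541 and 1.04 at 6, 16, 24 and 48 h. Much of that sum was Gja1, which at 48 h gave 2910.9 of 6291.0 with T3 and 3111.4 of 6043.8 without. The median log2 difference of the 12 kept markers was 0.06, -0.001, -1.02 and 0.16 at these times. The summed signal of the 13 ran from 3548.6 to 6428.3 in T3 cultures and from 3523.0 to 10867.0 in untreated cultures. The highest value was that of the untreated 24 h culture, and 6 of the 12 kept markers were past 2-fold lower with T3 at that time, against 5.16% of all kept probe-sets. The correlation of this list with Gdf10 was -0.07 over the 8 arrays. The untreated 24 h culture weighs heavily on that value. There the mean centred log2 signal of the 12 kept markers was 1.31, and on every other array it lay between -0.36 and 0.01. No correlation without that array was computed, so no lack of a tie is read from the value. At 24 h the ratio was also low for markers of granule cells (0.643), of Purkinje and GABA neurons (0.206) and of the oligodendrocyte lineage (0.36), so the 24 h arrays differed in their cell markers.

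The T3 ratios of other marker lists differed between lists and times. The summed meningeal signal had ratios of 0.761, 0.866, 1.40 and 0.93 at 6, 16, 24 and 48 h. At 6 h 4 of the 10 kept meningeal markers were past 2-fold lower with T3, against 0.328% of all kept probe-sets. The summed choroid plexus signal had ratios of 1.04, 1.07, 1.11 and 1.07, but most of that sum was Ttr. Of the 6 kept choroid plexus markers, 3 were higher with T3 in 4 of 4 pairs: Kcnj13, a potassium channel gene (log2 differences of 1.01, 0.95, 2.23 and 1.21), Folr1, a folate receptor gene (0.97, 0.50, 0.51 and 0.33), and Aqp1, a water channel gene (0.65, 0.73, 0.25 and 0.21). These 3 were named after their values were seen, and the share of all kept probe-sets higher in 4 of 4 pairs was not counted. The other 3 kept markers changed sign between times. Ttr had -0.016, -0.169, 0.186 and -0.106, and Clic6 had 0.254, -0.194, 0.376 and -0.065. Otx2 had -0.163, 0.232, -0.847 and 0.155. The mean centred log2 signal of the 6 was -0.87, 1.11, -0.37 and 0.89 in T3 cultures, against -1.32, 0.77, -0.82 and 0.61 in untreated cultures. This mean was higher with T3 at all 4 times, as were only 3 of its 6 markers. Its correlation with Gdf10 was 0.41.

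Microglia markers had summed ratios of 1.33, 1.24, 1.01 and 1.27 and a correlation with Gdf10 of 0.47. The sum hides a split at 24 h, where the median log2 difference of the 6 kept markers was -0.54. At that time 3 of the 6 were past 2-fold lower with T3 and 1 past 2-fold higher, against 5.16% and 3.67% of all kept probe-sets. Endothelial and mural markers had summed ratios of 0.991, 0.904, 1.87 and 1.13 and the highest correlation with Gdf10 among the cell type lists, 0.64. Much of the sum at 24 h was Acta2, which gave 1201.6 of 1846.8 with T3 and 543.3 of 990.0 without. The median log2 difference of the 7 kept markers at 24 h was 0.17. Granule cell markers had ratios of 0.966, 1.11, 0.643 and 1.30 and a correlation of -0.63. The correlations of Gdf10 with marker lists include the signals that chose the gene, so they are descriptions only. The part of any of these cell types in the Gdf10 difference was not tested.

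**Figure D3:**
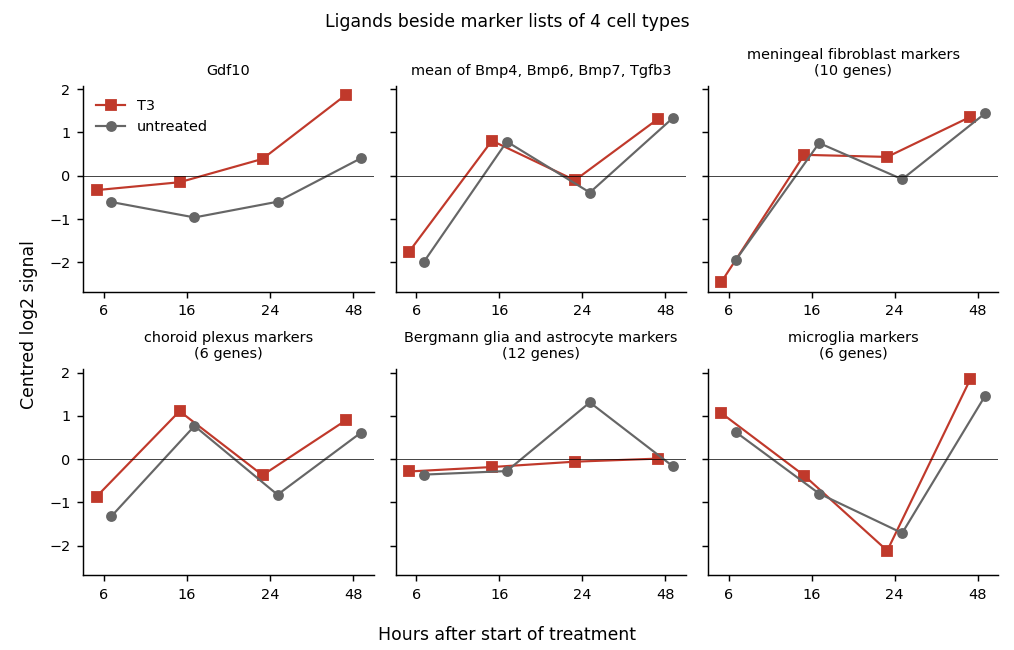
Log2 signal centred on the mean of the 8 arrays (vertical axis) at 6, 16, 24 and 48 h for Gdf10, for the mean of Bmp4, Bmp6, Bmp7 and Tgfb3, and for the mean of the kept markers of 4 cell types, with red squares for T3 and grey circles for untreated cultures. The BMP and Tgfb3 mean is lowest at 6 h in both treatments, as are the meningeal and choroid plexus markers, and the Bergmann glia and astrocyte markers are highest in the untreated 24 h culture.

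Thyroid hormone action was checked on Klf9 and Dbp, transcription factor genes known to respond to T3. Klf9 had 3099.5, 2736.9, 3131.3 and 2267.6 in T3 cultures, against 1220.0, 1508.2, 1235.2 and 1497.6 in untreated cultures. Dbp had 267.8, 596.2, 469.0 and 866.9 with T3 and 92.7, 218.9, 179.5 and 441.5 without. Both were higher with T3 in 4 of 4 pairs and neither passed the adjusted test (limma, adjusted p = 0.306 and 0.154). Their T3 differences were smallest at 48 h, at log2 0.60 for Klf9 and 0.97 for Dbp. The course of Gdf10 was fixed by its selection, so it is not compared with theirs. Hr, the other T3 target on this list, lay below the filter, with 15.3, 17.6, 10.8 and 16.5 in T3 cultures and 12.1, 10.7, 12.4 and 7.1 in untreated cultures. The Hr differences were 0.34, 0.72, -0.20 and 1.22, largest at 48 h and below 0 at 24 h.

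The rest of the pathway was read from 6 lists of 99 genes, of which 90 had a probe-set of their own and 49 were kept. With the hours 5 rose and none fell in limma, against 1.75% and 0.422% of all kept probe-sets. On the means of the time points, and without the 6 h or the 48 h pair, no probe-set passed in limma, these 5 included. For T3 none of the 49 passed, with 3 at an unadjusted p under 0.05 in limma. Among 24 other ligands, 18 had a probe-set and 2 were kept. Bmp5, a ligand close to Bmp6 and Bmp7, had 42.1, 177.7, 180.3 and 311.9 in T3 cultures and 57.1, 231.2, 134.5 and 350.5 in untreated cultures. It rose by 0.87 per doubling of the hours (SE 0.17, limma, adjusted p = 0.0474). Inhbb, the activin B subunit, did not pass (slope -0.28, limma adjusted p = 0.576). Bmp3, the closest relative of Gdf10, had no probe-set with a symbol of its own and was not analysed here.

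All 19 receptors and co-receptors had a probe-set, 13 were kept and none passed. Bmpr2, the type II receptor of BMPs, stayed between 786.2 and 1003.9 in T3 cultures and between 892.4 and 1305.8 in untreated cultures. Tgfbr3, the co-receptor betaglycan, had 174.2, 950.4, 722.0 and 1323.1 with T3 and 183.7, 1232.9, 501.2 and 1419.0 without. Its slope of 0.91 missed the threshold (SE 0.21, limma, adjusted p = 0.0573). The median slope of the 13 was 0.07.

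Of 8 SMAD genes 7 were kept and 1 rose. Smad6, an inhibitory SMAD that BMP signals induce, had 15.6, 53.5, 51.7 and 78.8 in T3 cultures and 10.6, 50.2, 35.9 and 87.4 in untreated cultures, with a slope of 0.86 (SE 0.18, limma, adjusted p = 0.048). The median of the 7 was -0.09. Of the 19 inhibitors and modulators outside the cell 6 were kept and 1 rose, with a median slope of 0.62. Fstl1, a secreted follistatin-like protein also made by fibroblasts, had 426.4, 1460.0, 1797.2 and 2321.6 with T3 and 608.5, 1868.4, 1284.9 and 2547.1 without (slope 0.73, SE 0.15, limma, adjusted p = 0.0474).

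Of the 12 genes of the latent complex and its activation 8 were kept and none passed, with a median slope of 0.39. The brightest were Itgav, an integrin subunit that activates latent TGF-beta (slope 0.14, limma adjusted p = 0.543), and Ltbp3, a latent TGF-beta binding protein (slope 0.47, limma adjusted p = 0.0616). Of 17 common target genes 13 were kept and 2 rose, with a median of 0.26. Id3, a target of BMP signals, had 77.2, 303.0, 352.2 and 582.2 in T3 cultures and 73.5, 273.7, 410.9 and 481.3 in untreated cultures. Its slope was 0.95 (SE 0.13, limma, adjusted p = 0.039), and both treatments increased at each step. Ccn2, a target of TGF-beta signals that is also known as CTGF, had 52.4, 188.6, 806.4 and 801.5 with T3 and 64.2, 224.5, 408.9 and 745.8 without (slope 1.31, SE 0.20, limma, adjusted p = 0.0428). At 24 h Ccn2 was nearly 2-fold higher with T3 (log2 0.98), and at the other times its T3 and untreated signals differed less.

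**Figure D4:**
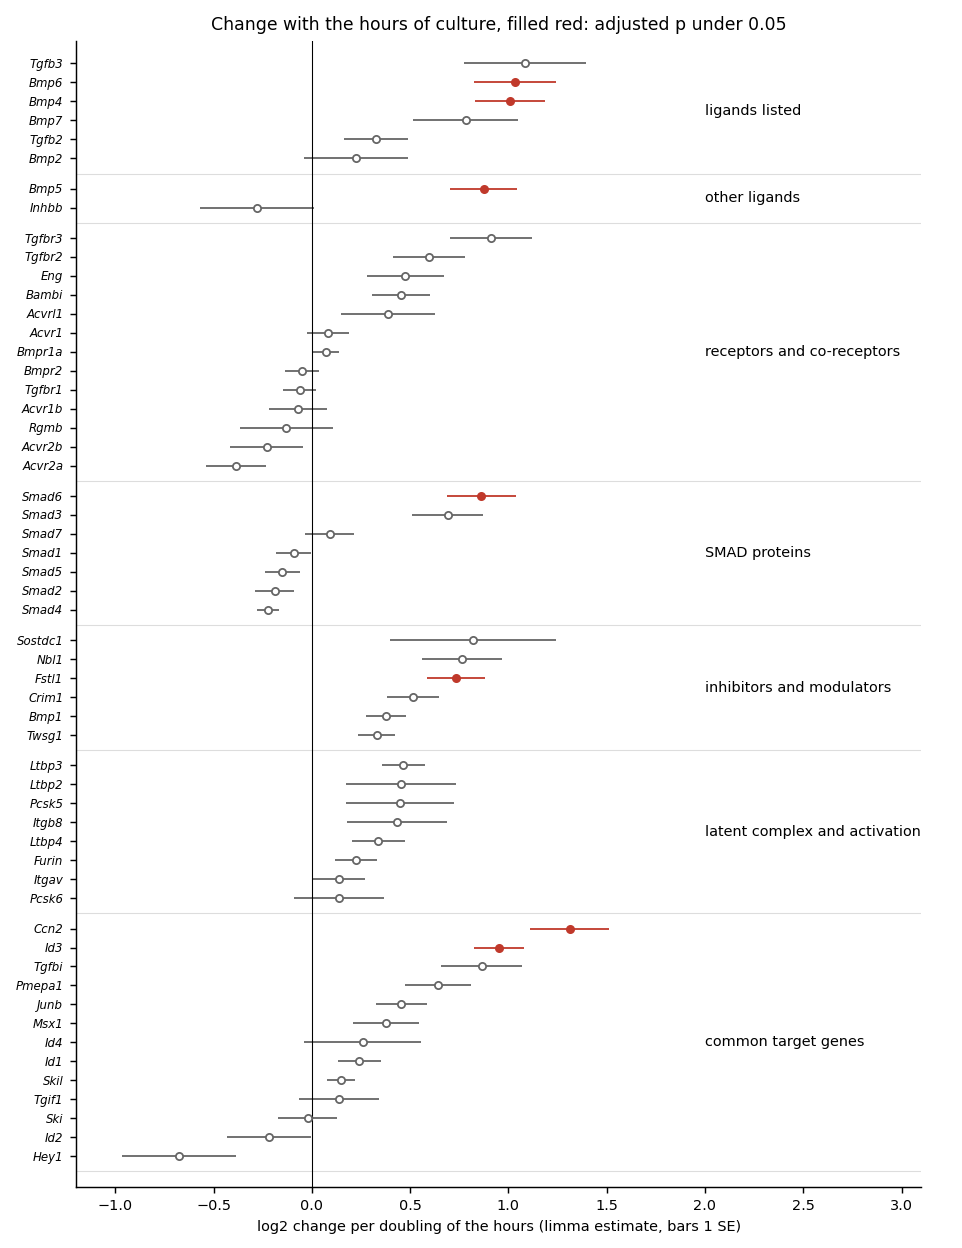
Change in log2 signal per doubling of the hours (horizontal axis) for 6 ligands other than Gdf10 and 49 kept genes of the pathway lists, 1 gene per line, with points for limma estimates, bars of 1 SE and filled red points for an adjusted p under 0.05. Bmp4, Bmp6, Bmp5, Smad6, Fstl1, Id3 and Ccn2 are filled, and all of them lie to the right of 0.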

How the data were processed

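RNA was amplified by 1 round and hybridised to whole-genome Affymetrix mouse arrays. The values deposited by the authors are linear signal intensities, 1 for each probe-set on each array, and the submitters' processing notes name GCOS and MAS5. The authors scaled every array. The mean trimmed by 2% at both ends was 98.6 to 99.5 on every array, and the median was 14.8 to 17.7. Of the 45101 probe-sets 64 controls were left out. Of the rest 34945 carried 1 gene symbol, 932 several and 9160 none. The few arrays limit the precision.

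Signals were floored at 1 before the log2 was taken, and probe-sets with a mean log2 signal of at least 4.95 (the 60th percentile) were kept. Fits used limma 3.58.1 in R 4.3.3 with moderated variances and a variance trend, with Benjamini-Hochberg adjustment over all kept probe-sets and a threshold of 0.05. The T3 effect was fitted with the time point as a block. Its change with the hours was fitted on the 4 paired differences against log2 hours. The change with the hours was fitted over 8 arrays with treatment as a covariate and the time point as a random block (correlation 0.569). Pairing by cell batch comes from the methods, and paired arrays deviated together from the treatment means (correlations 0.905, 0.713, 0.52 and 0.878). The fits were tested on simulated data. Tables used pandas 2.3.3 and numpy 2.4.6 under Python 3.11.15, and plots used matplotlib 3.10.9.

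The ligands and lists were chosen with earlier results of these data known. Named were all probe-sets of the ligands, pathway genes that passed a test (or the brightest 2 of a list with none), Bmp3, and the 5 highest and 3 lowest correlations with Gdf10. A gene is represented by its brightest probe-set. Alternatives were other scalings, filters, an offset of 32, other time scales and blocks, and leaving out each time point. The methods give pups of another age than the labels, whose age is used here. Detection calls and quantitative PCR were not used here.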

Additional observations from a re-analysis of the deposited data

How the results depend on the processing

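The Gdf10 differences moved by less than the SD over all probe-sets under every alternative: 0.19 to 0.28 at 6 h, 0.62 to 0.83 at 16 h, 0.80 to 1.07 at 24 h and 1.32 to 1.46 at 48 h. The rise of Bmp4 and Bmp6 lies close to the threshold and was lost under several alternatives, of which the cause was not tested. With quantile normalization Bmp4 had a slope of 0.99 (limma adjusted p = 0.0535) and Bmp6 1.01 (0.0573), without a filter 1.01 (0.0651) and 1.03 (0.0849), with hours in place of log2 hours 0.062 (0.165) and 0.065 (0.166) per hour, on the mean of each time point 1.01 (0.208) and 1.03 (0.212), and in untreated arrays alone, an alternative chosen after seeing the data, 1.19 (0.428) and 1.11 (0.428). With 32 added Bmp6 had 0.77 (0.0539). Leaving out each time point gave 0.59 to 1.19 for Bmp4 and 0.51 to 1.10 for Bmp6. Probe-sets rising or falling with the hours numbered 316 and 76, and 41 and 14 with quantile normalization, 129 and 33 with 32 added, 6 and 2 without a filter, 0 and 0 with hours, with time point means and with untreated arrays alone, 1916 and 1542 with the arrays taken as independent, and 0 to 2415 and 0 to 2566 when each time point was left out (0 without the 6 h or the 48 h pair). Without the 24 h pair Bmp7, Tgfb2 and Tgfb3 also passed (limma adjusted p = 0.0375, 0.0236 and 0.00503). The T3 test called 0 to 2 probe-sets when each pair was left out, 2 of them without the 24 h pair. With 32 added the log2 difference at 6 h was -0.50 for Bmp2 and 0.43 for Bmp4, against -0.87 and 0.93. T3 differences near 0 changed sign: Bmp7 was -0.0003 with quantile normalization, -0.057 with median centring, -0.0011 with 32 added and -0.17 to 0.10 with each pair left out, and Tgfb2 was 0.0017 with quantile normalization and -0.25 to 0.13 with each pair left out. The slopes with each time point left out were -0.32 to 0.54 for Bmp2 and -0.027 to 0.98 for Bmp7. Counts past 2-fold, higher and lower, were 95 and 59, 78 and 55, 661 and 930, and 150 and 62 at 6, 16, 24 and 48 h. With 32 added they were 15 and 8, 14 and 9, 232 and 521, and 12 and 18, and with a filter at the 75th percentile 23 and 18, 24 and 18, 339 and 378, and 45 and 20. No paired analysis by replicate number was possible because the labels give no replicate numbers. Tgfb1 and Inhba lay below the filter and were not tested.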
